A study of Mus musculus with 60 samples.

Results

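EPZ005687, a small molecule that inhibits EZH2, was compared with its solvent DMSO in the anterior part (A) of cultured mouse embryo explants. The comparison holds 1 RNA library a side. Its members are the 4479 genes, of 23127 in the deposited table, with 100 or more counts over the 2 A libraries. The series holds 60 samples of ICR mice, of which the 6 RNA libraries are used here and the other 54 are not analysed here. Explants of mouse embryos were grown for 48 hours in N2B27, a serum-free medium, with EPZ005687 or with an equal volume of DMSO. A, the posterior embryonic part (P) and the extraembryonic part (ExE) each gave 1 polyA RNA library per arm. The labels give no genotype beyond the strain, and they leave out the stage of these embryos and how many went into a library. All 6 libraries come from cultured tissue, so none shows uncultured tissue.

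EZH2 is the enzyme of a Polycomb complex, PRC2, and methylates lysine 27 of histone H3. The trimethyl mark, H3K27me3, lies over the promoters of many silent developmental regulators, above all promoters rich in CG dinucleotides. In the gastrulating embryo the anterior epiblast gives rise to the forebrain and to surface ectoderm. The posterior epiblast passes through the primitive streak into mesoderm and endoderm, and the visceral endoderm is an outer layer that surrounds the embryo and secretes serum proteins.

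With 1 library a side there is no spread between replicates and no test, so every difference below is a difference between 2 libraries. A code in the deposited column names is shared by the EPZ005687 libraries and another by the DMSO libraries, so the treatment and whatever that code stands for cannot be told apart. The A library with DMSO holds 1780304 counts and the A library with EPZ005687 holds 1000342, the smallest total of the 6. Levels are scaled CPM, CPM being read counts per 1000000, after trimmed-mean (TMM) scaling of the 6 libraries. A ratio is EPZ005687 over DMSO, with a 95% interval that covers counting error only. A count of 0 was set to a floor of 3 counts, which is 1.77 scaled CPM with DMSO and 2.35 with EPZ005687 in A. The ratio then holds at that floor, and the limit of its 95% interval can lie nearer 1. At an equal depth of 1000342 counts, 13903 genes were detected in A with DMSO and 19576 in A with EPZ005687. Of 1455 olfactory and vomeronasal receptor genes, which this tissue is not known to use, 27.97% and 57.73% were detected, and 95% had no more than 23 and 5 counts. Single low counts therefore carry little weight in either library. Fewer cells of a type and less RNA per cell cannot be told apart in these bulk samples.

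The label A was checked first against markers of anterior neural ectoderm. The 28 genes of that list summed to 8372 scaled CPM in A, 508 in P and 359 in ExE with DMSO. With EPZ005687 the sums were 1048, 439 and 70.9. A had the highest level in both arms.

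The main differences can be shown at 4 promoters, and the letters are printed because CG content is the property tied to PRC2 in the background above. The homeobox gene Six3, of the forebrain, was lower with EPZ005687. T, the Brachyury gene of the primitive streak and notochord, was higher, and so were Afp, the fetal serum protein alpha-fetoprotein, and Krt8, a keratin of simple epithelia. Each line gives the 150 bases before the start listed in the RefSeq promoter table (GRCm38, the assembly also called mm10), 5′ to 3′ on the gene's strand, with CG in capitals. The start listed for Six3 lies inside the annotated span of that gene (chromosome 17, 85613608 to 85626191), and those of the other genes lie at its edge.
Six3, chr17:85620684-85620833, plus strand: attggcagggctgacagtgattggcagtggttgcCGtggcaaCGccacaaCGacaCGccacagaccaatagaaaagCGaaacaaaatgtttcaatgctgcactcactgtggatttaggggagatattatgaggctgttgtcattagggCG
T, chr17:8434273-8434422, plus strand: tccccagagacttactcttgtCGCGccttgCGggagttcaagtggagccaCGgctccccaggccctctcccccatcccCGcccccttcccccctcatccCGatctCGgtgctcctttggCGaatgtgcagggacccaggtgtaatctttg
Afp, chr5:90490564-90490713, plus strand: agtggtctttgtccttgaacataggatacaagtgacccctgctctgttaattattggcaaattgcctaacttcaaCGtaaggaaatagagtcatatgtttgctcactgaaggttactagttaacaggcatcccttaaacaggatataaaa
Krt8, chr15:102004343-102004492, minus strand: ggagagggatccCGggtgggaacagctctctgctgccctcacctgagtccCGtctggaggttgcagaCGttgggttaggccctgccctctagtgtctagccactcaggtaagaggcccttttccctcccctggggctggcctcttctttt
The 150 bases hold 6 CG for Six3, 8 for T, 1 for Afp and 3 for Krt8. Over the whole 300-base window, which runs 50 bases past the start, the counts are 14, 17, 3 and 6. Of all RefSeq promoters of that length, 36.88% have at least as many CG as Six3, 31.91% as T, 56.36% as Krt8 and 76.15% as Afp.

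Among the 4479 genes, 189 were 4-fold or more higher with EPZ005687, which is 4.22% of those compared. Another 532 were 4-fold or more lower, which is 11.9%. The remaining 3758 lay within 4-fold, and 2508 (56.0%) lay within 2-fold. The median log2 ratio was -0.34, the 5th percentile -2.90 and the 95th percentile 1.87. Scaling by library totals moved the median to 0.07 and the counts to 316 higher and 366 lower, so the share of calls that were higher went from 26.2% to 46.3%. Changes are best read against that shift, and a gene or list close to the median can take either sign. The genes nearest the limit for higher calls had ratios of 4.03 just inside and 3.99 just outside it. A gene can reach 100 counts through 1 of the 2 libraries alone. Such a gene can still lie within 4-fold, but if past 4-fold it can only be higher in that library. Counts of called genes within a list are therefore partly set by the minimum, and they support no direction. Each is to be read beside the 4.22% higher and 11.9% lower over all genes compared. The summed level of a list takes in all its members with no minimum. Of the 4479 genes, 7 had no count with DMSO and 1 had none with EPZ005687.

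**Figure D1:**
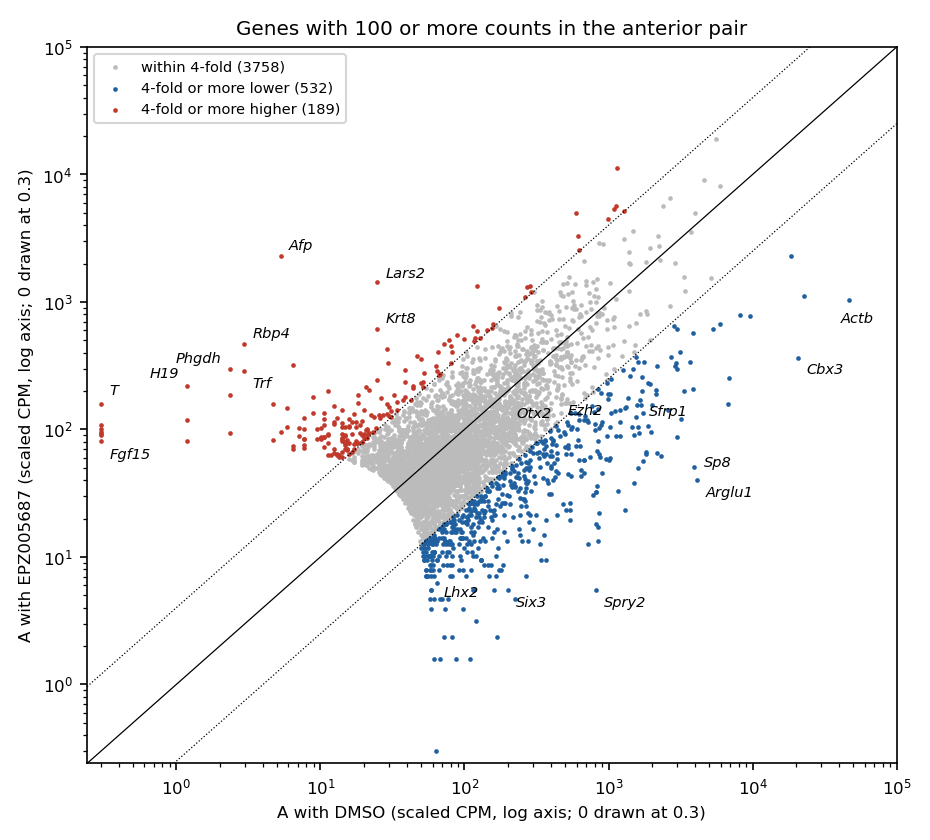
Scaled CPM of each of the 4479 genes in A with DMSO (horizontal, log axis) against A with EPZ005687 (vertical, log axis), 1 library each; counts of 0 are drawn at 0.3, the solid line marks equal levels and the dotted lines a 4-fold difference. The 189 red genes lie above the band and reach from low DMSO levels, and the 532 blue genes below it include some of the most abundant genes of the DMSO library, such as Actb and Cbx3.

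Anterior neural ectoderm genes were lower with EPZ005687. The summed level of all 28 genes of this list was 7.99-fold lower (95% interval 7.55 to 8.45), and without Sp8, the most abundant of them, it was 4.49-fold lower. Of the 28 genes, 11 reached 100 counts, some of them through the DMSO library alone. Of these 8 were 4-fold or more lower, or 5 with library totals, 0 were higher and 3 lay within 4-fold. Over all genes compared 11.9% were lower and 4.22% higher in the main scaling.

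The largest of these differences was in Sp8 (chromosome 12, 118846288 to 118852578), a zinc finger factor needed for forebrain patterning, with 6615 counts in A with DMSO and 65 with EPZ005687. Its scaled CPM was 3899 and 51.0, a level 76.5-fold lower (95% interval 59.9 to 99.2). P held 9 Sp8 counts with DMSO and 7 with EPZ005687, and ExE held 893 and 20. High Sp8 was thus a feature of the A library with DMSO, and ExE had a smaller amount in that arm.

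Six3, which represses Wnt genes in the rostral forebrain, had 339 counts with DMSO and 7 with EPZ005687 in A, and no more than 30 in any library of P or ExE. Its level in A was 36.4-fold lower (95% interval 17.5 to 91.2). The secreted Wnt antagonist Sfrp1 went from 2827 to 218 counts, 9.74-fold lower (8.49 to 11.2). Sox11, a factor of neural progenitors, went from 2254 to 191 counts, 8.87-fold lower (7.65 to 10.3). Lhx2, a LIM homeobox gene of the forebrain and eye field, had 138 and 9 counts and was 11.5-fold lower (5.89 to 25.7). Pax6, a master regulator of eye and forebrain, had 323 and 57 counts and was 4.26-fold lower (3.20 to 5.75). The intervals of Sp8, Six3, Sfrp1, Sox11 and Lhx2 lie wholly past 4-fold, while that of Pax6 reaches inside it.

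Other anterior genes lay within 4-fold or under 100 counts. Otx2, the homeobox gene required for the head, had 343 counts with DMSO and 146 with EPZ005687, which are 202 and 115 scaled CPM and a ratio of 0.57 (0.46 to 0.69). Crabp2, a carrier of retinoic acid, had 337 and 294 counts and a ratio of 1.16 (0.99 to 1.36). Sox2 and Sox1, which mark neural progenitors, had 55 and 34 counts and 23 and 21 counts. Fezf1 and Emx2, both genes of the forebrain, had 72 and 69 counts with DMSO against 25 and 6 with EPZ005687. Stmn2, a microtubule regulator of neurons and the 1 gene past 4-fold in the neuronal differentiation list, went from 444 to 35 counts, 9.53-fold lower (6.75 to 13.9).

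Secreted proteins of the visceral endoderm were higher with EPZ005687 in A. The 23 genes of this list summed to 180 scaled CPM with DMSO and 3777 with EPZ005687, 21.01-fold higher (18.7 to 23.7). Without Afp the sum was 8.62-fold higher. Of the 23 genes, 6 reached 100 counts and 5 were past 4-fold, all higher, beside 4.22% of all genes compared. Those 5 reached 100 counts through the EPZ005687 library alone, so past 4-fold they could only be higher. The sums were 19455 and 15295 in P and 47395 and 25984 in ExE with DMSO and EPZ005687. The A library with DMSO was the lowest of the 6 by a wide margin, and A with EPZ005687 was below all P and ExE libraries.

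Afp (chromosome 5, 90490714 to 90508907) had 9 counts in A with DMSO and 2897 with EPZ005687. In P it had 12822 and 8474 counts, and in ExE 91855 and 20268. Its ratio in A was 428-fold (225 to 938), with 5.31 and 2273 scaled CPM. Rbp4, which carries retinol in blood, had 5 and 592 counts in A, 158-fold higher (67.2 to 487). Trf, the iron carrier transferrin, had 5 and 367 counts, 97.7-fold higher (41.5 to 303). Ttr, the thyroid hormone carrier transthyretin, had 4 and 120 counts, 39.9-fold higher (15.2 to 149). The protease gene Ctsz had 32 and 138 counts, 5.74-fold higher (3.89 to 8.72). Apoe, a lipid carrier, had 165 and 454 counts and a ratio of 3.66 (3.06 to 4.40), just inside the limit.

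The other members of the list were sparse, and 9 of the 23 had no count with DMSO and 2 none with EPZ005687. Apoa1, a lipoprotein gene, had 0 and 19 counts, Alb, serum albumin, 0 and 6, and Fgb, a fibrinogen chain, 8 and 42. In the list of visceral endoderm uptake receptors and regulators, 4 of 21 genes reached 100 counts and 0 were past 4-fold. The endocytic receptors Cubn and Lrp2 had 80 and 58, and 600 and 137 counts. Their adaptor Dab2 had 66 and 59 counts, and Hnf4a, a nuclear receptor of this layer, had 0 and 6. The summed level of this list was 882 scaled CPM with DMSO and 1194 with EPZ005687, and without Emb, its most abundant member, the ratio was 0.69. The part of visceral endoderm cells left on the dissected tissue in these values was not tested.

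In the secreted list 19 of 23 members had a promoter in the RefSeq table, with a median of 5 CG in the 300-base window, a range of 1 to 15 and 0 at 20 or more. Over all RefSeq promoters the median was 7 and 26.8% had 20 or more, and over the genes compared in A that lay within 4-fold the median was 23 and 64.7% had 20 or more. Of the neural list only 71.4% of members had a promoter in the table, too few to compare.

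Keratins and an epithelial junction gene were higher in A with EPZ005687 too. The 16 genes of the surface ectoderm and epidermis list summed to 137 and 1511 scaled CPM in A, 2986 and 1713 in P, and 4727 and 4756 in ExE, with DMSO and EPZ005687. As with the secreted proteins, A with DMSO was lowest. The sum in A was 11.05-fold higher with EPZ005687 (9.64 to 12.7), and without Krt8 it was 8.04-fold higher. The 4 genes with 100 counts reached them through the EPZ005687 library alone.

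Krt8 had 42 and 778 counts in A, 24.7-fold higher (18.1 to 34.5), and its partner Krt18 had 49 and 540 counts, 14.7-fold higher (10.9 to 20.1). Krt7, another keratin of simple epithelia, had 0 and 122 counts, at least 54.1-fold higher. Cldn6, a tight junction protein of early epithelia, had 42 and 310 counts, 9.83-fold higher (7.10 to 13.9). Keratins of simple epithelia are also known from visceral endoderm and trophoblast. Markers of stratified skin were low in both, with 17 and 11 counts for Trp63, the p63 factor of basal cells, 0 and 2 for Krt5 and 8 and 2 for Krt14. In the trophoblast list the 2 genes past 4-fold were Krt8 and Krt18, while Cdx2 had 31 and 0 counts, Eomes 16 and 6 and Elf5 1 and 1.

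Among genes of the parietal endoderm, which lays down a thick basement membrane, 1 of the 6 with 100 counts was higher, beside 4.22% of all genes compared. It was Col4a1, a type IV collagen chain, with 17 and 107 counts, 8.38-fold higher (5.00 to 14.9). The list's sum was 324 and 694 scaled CPM. Blood and endothelium markers were scarce in both A libraries, where 0 of 32 genes reached 100 counts. Their sum was 119 scaled CPM with DMSO and 127 with EPZ005687, beside 10424 and 1664 in P and 732 and 28793 in ExE.

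**Figure D2:**
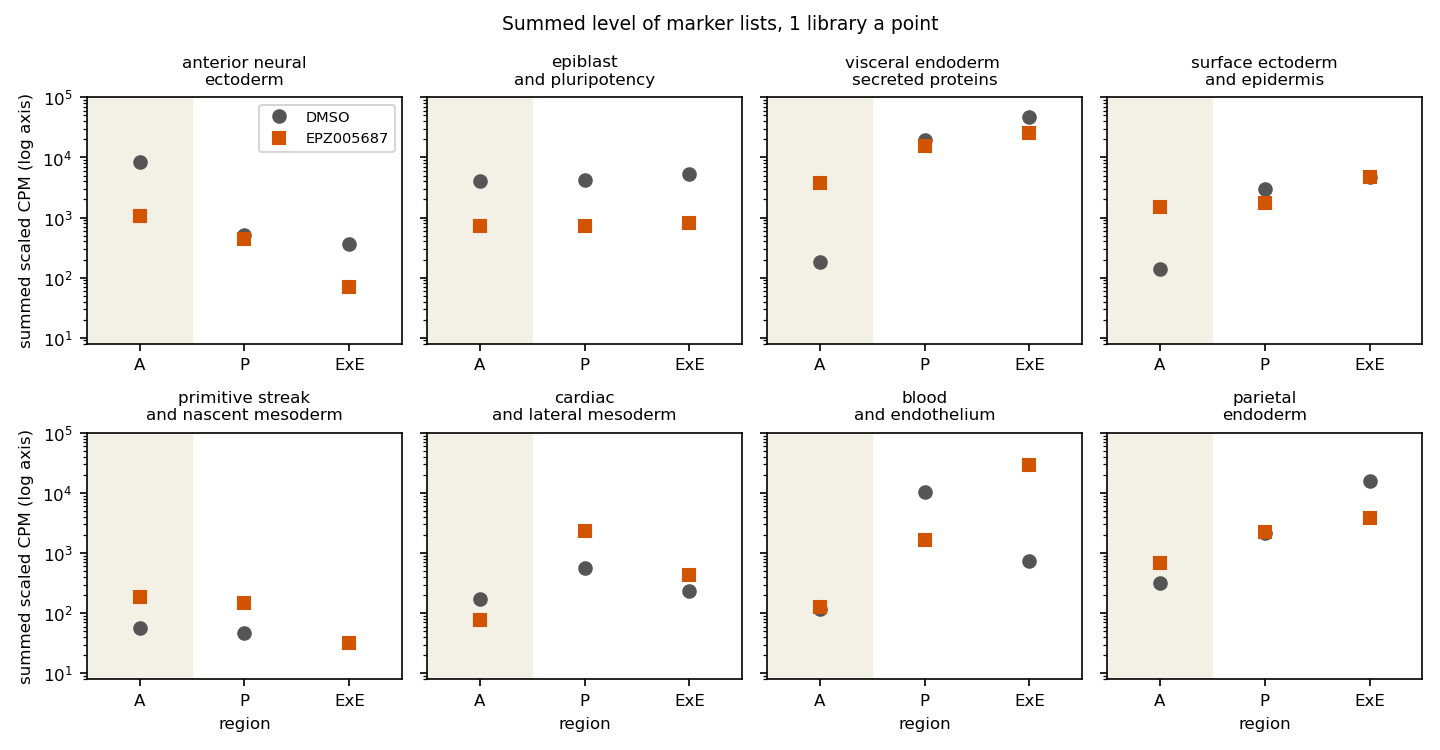
Summed scaled CPM (log axis) of 8 marker lists in A (shaded), P and ExE, with DMSO as grey circles and EPZ005687 as orange squares, 1 library a point. The neural list is 8372 and 1048 in A, while the secreted visceral endoderm list is 180 and 3777 and the surface ectoderm list 137 and 1511. In those last lists A with DMSO is the lowest point.

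The primitive streak gene T (chromosome 17, 8434423 to 8442496) had 0 counts in A with DMSO and 203 with EPZ005687, at least 90.1-fold higher, at a level of 159 scaled CPM. In P it had 66 and 106 counts, which are 22.03 and 50.1 scaled CPM, and in ExE 1 and 0. The highest level of the 6 libraries was that of A with EPZ005687. T was the 1 gene of 22 in the streak list with 100 counts. Mixl1 and Eomes, which specify mesendoderm in the streak, had 4 and 1, and 16 and 6 counts, and Mesp1, Tbx6 and Msgn1, all genes of nascent mesoderm, had no count in either A library. The rest of the list summed to a ratio of 0.53 without T.

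T is also a gene of the notochord, and the list of definitive endoderm, node and notochord held 1 gene past 4-fold each way, Cldn6 higher and Sox9 lower. Foxa2, a forkhead factor of node and floor plate, had 0 and 27 counts in A. Shh, the signal from these tissues, had 0 and 21, and Foxa1 had 0 and 14. Noto, a homeobox gene of the node, had 10 and 30. Sox17, of definitive endoderm, had 6 and 5, and Cxcr4, of the same layer, 11 and 6. Chosen after their values were seen, the BMP antagonist Chrd had 1 and 25 counts and Trh 0 and 23. The whole list of 19 genes summed to 444 and 433 scaled CPM in A, a ratio of 0.98 (0.87 to 1.09). Without Sox9 and Cldn6, an alternative added after the data were seen, the other 17 genes summed to 50.7 and 170 scaled CPM. That is a ratio of 3.36 (2.61 to 4.36), so the list's direction depended on which members were left out. The same 17 genes summed to 509 and 5317 scaled CPM in P and 602 and 322.5 in ExE, with DMSO and EPZ005687. A with EPZ005687 was thus below all P and ExE libraries. Each of the 17 genes lies under 100 counts in A, so single genes are given as counts and carry no fold.

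Sox9, a factor of neural crest, glia and many other progenitors, had 625 and 25 counts in A, 18.8-fold lower (12.6 to 29.3). Mesoderm further along was scarce: in the somite list 0 of 21 genes reached 100 counts, and in the cardiac list 1 of 23 did. That gene was Mef2c, a factor of muscle and heart, with 99 and 7 counts, 10.6-fold lower (4.97 to 27.1).

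**Figure D3:**
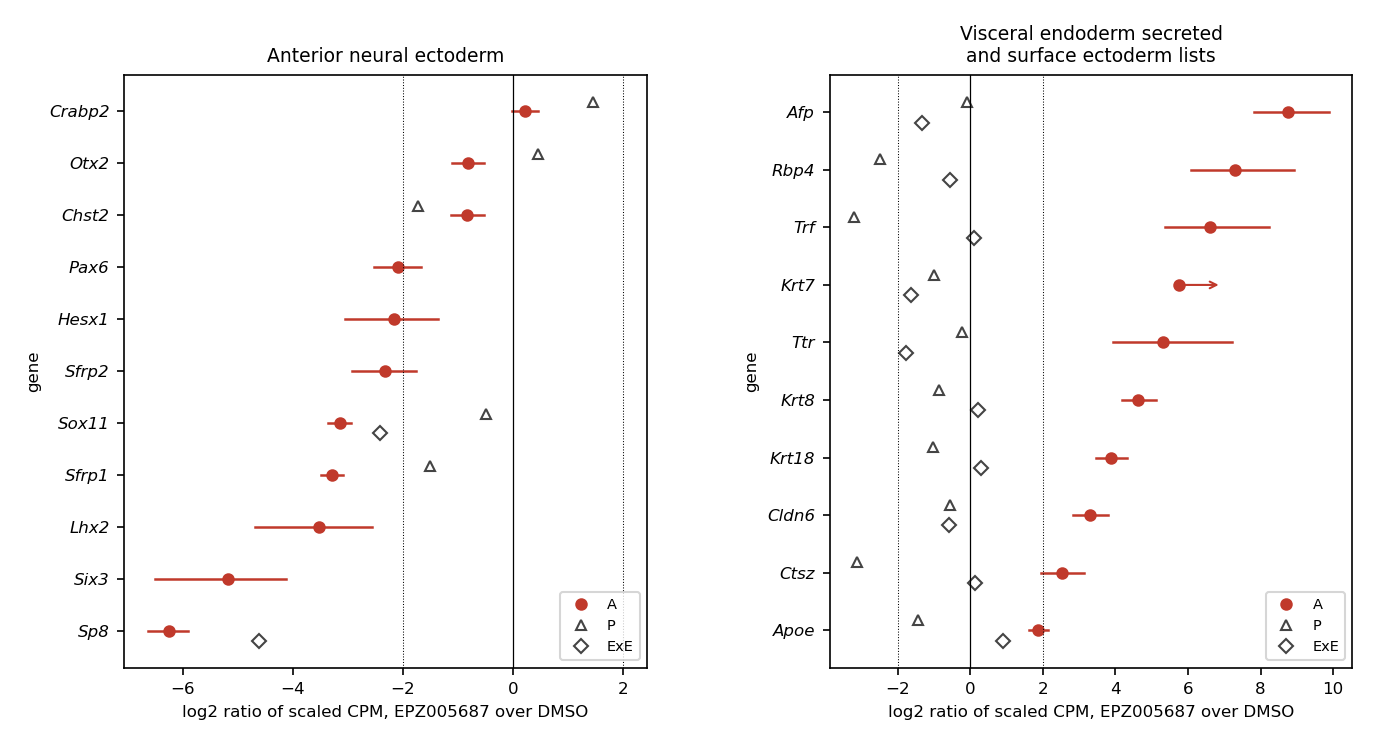
Log2 ratio of scaled CPM, EPZ005687 over DMSO, for the genes with 100 or more counts in A from the neural list (left) and the secreted visceral endoderm and surface ectoderm lists (right). Red points with 95% counting intervals are A, triangles P and diamonds ExE where that pair also has 100 counts, an arrow marks a lower bound and dotted lines mark 4-fold; the right-hand genes lie at 1.87 and above in A, and at 0.90 and below in P and ExE.

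Several regulators of pluripotent and early embryonic cells were lower. Of 20 epiblast and pluripotency genes 7 reached 100 counts. Of these 3 were 4-fold or more lower and 0 higher, beside 11.9% and 4.22% of all genes compared. Trim71, an RNA-binding ubiquitin ligase, had 382 and 6 counts, 47.8-fold lower (21.8 to 131). Lin28a, which blocks maturation of let-7 microRNAs, had 2030 and 113 counts, 13.5-fold lower (11.2 to 16.5). Sall4, a zinc finger factor of pluripotent cells, had 3389 and 197 counts, 12.9-fold lower (11.19 to 15). The core factors Pou5f1 and Nanog were near the floor, with 18 and 4, and 14 and 9 counts. The list's sum was 5.77-fold lower in A, 5.81-fold lower in P and 6.67-fold lower in ExE. Without Sall4, its most abundant member, the sum in A was 3.80-fold lower, inside the limit.

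Signalling genes differed within their pathways. In the FGF list 6 of 22 genes reached 100 counts. Of these 3 were lower and 1 higher, beside 11.9% and 4.22% of all genes compared. Spry2 (chromosome 14, 105891947 to 105896819), which feeds back on FGF receptor signals, had 1378 and 7 counts, 148-fold lower (71.6 to 369). The ligand Fgf10 had 313 and 11 counts, 21.4-fold lower (11.8 to 43.3), and the target Etv5 had 115 and 6, 14.4-fold lower (6.42 to 40.1). The ligand Fgf15 went the other way, with 0 and 104 counts, at least 46.1-fold higher, and with no more than 1 count in any library of P or ExE.

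Among Notch genes, 2 of the 3 with 100 counts were lower, beside 11.9% of all genes compared. The receptor Notch2 had 2557 and 48 counts, 40.02-fold lower (30.1 to 54.4), and the ligand Jag1 had 1531 and 58, 19.8-fold lower (15.3 to 26.2). Hes5, a Notch target in neural progenitors, was chosen after its values were seen and had 0 and 41 counts. Of the 4 Wnt genes with 100 counts 3 were lower and 1, T, was higher, beside 11.9% and 4.22% of all genes compared. Tcf7l1, a repressor of Wnt targets, was lower with 122 and 3 counts. Znrf3, a ligase that removes Wnt receptors, had 680 and 66, and the cyclin gene Ccnd1 had 465 and 50. Those levels were 30.6-fold (10.2 to 150), 7.74-fold (6.01 to 10.1) and 6.99-fold (5.21 to 9.55) lower.

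In the BMP list 2 of 5 genes were higher and 0 lower, beside 4.22% and 11.9% of all genes compared. Id3, an inhibitor of helix-loop-helix factors and a BMP target, had 50 and 423 counts, 11.3-fold higher (8.39 to 15.4). Its relative Id2 had 40 and 160, 5.33-fold higher (3.75 to 7.73). In the Nodal list 2 of 6 were lower and 0 higher, beside 11.9% and 4.22% of all genes compared. With library totals 1 was lower and 2 were higher. The lower genes in the main scaling were the SMAD corepressor Skil with 471 and 28 counts and the receptor Acvr2a with 183 and 31. Gli3, the repressor of hedgehog targets, had 1042 and 106 counts, 7.38-fold lower (6.04 to 9.11).

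EZH2 itself and its partners stayed within 4-fold. Of 14 PRC2 genes 8 reached 100 counts, 0 of them past 4-fold either way, with a median log2 ratio of -1.15. Ezh2 had 799 and 222 counts, or 471 and 174 scaled CPM, a ratio of 0.37 (0.32 to 0.43). The scaffold subunit Suz12 had 332 and 75 counts, a ratio of 0.30 (0.23 to 0.39). Jarid2, which helps bring the complex to chromatin, had 318 and 60, a ratio of 0.25 (0.19 to 0.33) just inside the limit. Eed, which binds the finished mark, had 149 and 129 counts and a ratio of 1.15 (0.90 to 1.47). The histone-binding subunits Rbbp4 and Rbbp7 had ratios of 1.55 and 1.54. The second catalytic gene, Ezh1, had 0 and 17 counts. The list's sum had a ratio of 0.81, which turned to a log2 ratio of 0.12 with library totals. Without Rbbp7, its most abundant member, the ratio was 0.53 (0.50 to 0.57) in the main scaling. A compound that blocks the enzyme need not change its RNA, and no H3K27me3 values from treated explants were analysed here.

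Kdm6b, which removes the mark, had 624 and 12 counts and was 39.1-fold lower (22.2 to 76.0). The other demethylase, Kdm6a, had 70 and 25 counts, and the acetyltransferase genes Crebbp and Ep300 had ratios of 0.67 and 0.51. Further chromatin genes past 4-fold were Kmt2d, an H3K4 methyltransferase, with 264 and 25 counts, Whsc1l1, an H3K36 methyltransferase, with 413 and 44, and Zfp57, which protects methylated imprints, with 132 and 14. Each was lower, by 7.93-fold, 7.05-fold and 7.08-fold. Cbx3, the heterochromatin protein HP1 gamma, had 34937 and 466 counts, 56.3-fold lower (51.4 to 61.8), and reads may be shared with copies of this gene.

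Among families known as PRC2 targets, Hox genes were at or near 0 in both A libraries. Of 39 Hox genes 0 reached 100 counts, 33 had no count with DMSO and 23 had none with EPZ005687. The family summed to 18.9 and 23.5 scaled CPM, a ratio of 1.25 (0.73 to 2.12), and without Hoxc9, its most abundant member, the ratio was 2.35 (1.26 to 4.54). Of 43 genes in the Irx, Nkx, Lhx, Pax and Six3-related families 28 had no count with DMSO and 13 had none with EPZ005687. The 3 with 100 counts, Six3, Lhx2 and Pax6, reached them through the DMSO library alone, so past 4-fold they could only be lower. Without Six3 the sum of these families had a ratio of 0.52. Of 17 T-box genes 7 had no count with DMSO and 4 had none with EPZ005687. T was the 1 of 2 with 100 counts past 4-fold, beside 4.22% higher over all genes compared. In the Gata and Fox families 26 of 49 had no count with DMSO and 12 had none with EPZ005687. Of the 5 with 100 counts 2 were lower, beside 11.9% of all genes compared. They were Foxn3 with 424 and 17 counts and Foxn2 with 258 and 26. Among CDK inhibitors Cdkn1c, an imprinted brake on the cell cycle, was higher, with 13 and 129 counts, a ratio of 13.2 (7.46 to 25.5). Cdkn2a, a Polycomb target in many cell types, had no count in either library.

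Imprinted genes went both ways. Of 47 imprinted genes measured, 22 reached 100 counts. Of these 3 were higher and 6 lower, or 4 lower with library totals, beside 4.22% and 11.9% of all genes in the main scaling. H19, a noncoding RNA made from the maternal allele, had 2 and 279 counts, 186-fold higher (50.9 to 1541), beside 3062 and 589 counts in P and 5506 and 4295 in ExE. Its neighbour Igf2, a growth factor made from the paternal allele and chosen after its values were seen, had 7 and 47. Nnat, a membrane protein of the nervous system, had 51 and 162 counts, 4.23-fold higher (3.07 to 5.91). Igf2r, the receptor that clears IGF2, had 1455 and 28 counts, 39.04-fold lower (26.9 to 59.0), and an antisense RNA overlaps it. Peg12 had 1388 and 41 counts, 25.4-fold lower, and Impact, a regulator of translation, had 3196 and 293, 8.19-fold lower.

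Sex-linked genes differed between the arms. Xist, which coats the inactive X chromosome of female cells, had 335 and 17 counts, 14.8-fold lower (9.11 to 25.7), and an antisense RNA overlaps it. Counts of Y-linked genes were 4 with DMSO against 76 with EPZ005687 for Ddx3y, 0 against 38 for Uty, 0 against 17 for Kdm5d and 0 against 57 for Eif2s3y. Kdm5c, an X-linked demethylase that escapes inactivation, had 443 and 41 counts, 8.12-fold lower. Of 184 X-linked genes with 100 counts 6 were higher and 32 (17.4%) lower, beside 182 and 499 (11.6%) of 4288 autosomal genes. No Y-linked gene reached 100 counts. The part of embryo sex in the other differences was not tested, since each arm has 1 A library.

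Genes of the cell skeleton included the most abundant transcript of the DMSO library. Actb, cytoplasmic beta-actin, had 79576 and 1328 counts in A, 45.01-fold lower (42.6 to 47.6). It took 4.47% and 0.133% of counts. Its close paralog Actg1, with which reads can be shared, had 2162 and 4008 counts and a ratio of 2.47 (2.34 to 2.60). Without Actb the list of actins and actin binders turned from 5.86-fold lower to 1.94-fold higher. Tubulins did likewise, with Tubb5 at 31511 and 2917 counts, 8.12-fold lower, and Tuba1a at 462 and 1672 and Tuba1c at 43 and 165, 4.82-fold and 5.11-fold higher. Without Tubb5 the list's sum went from 3.80-fold lower to 3.29-fold higher. Tubulin genes are near copies, and their split of reads is uncertain.

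Metabolic genes were split as well. In the glycolysis list 2 of 13 were higher (3 with library totals), beside 4.22% of all genes compared in the main scaling. They were the glucose transporter Slc2a1 with 137 and 577 counts, 5.61-fold (4.65 to 6.81), and Gapdh with 1060 and 3274, 4.11-fold (3.84 to 4.41). The kinase Hk2, the first step of glycolysis, was lower, with 735 and 60 counts, 9.202-fold (7.07 to 12.2). The list summed to 3311 and 7847 scaled CPM in A, while P had 7651 and 5438. In the cholesterol list 3 of 17 were lower, beside 11.9% of all genes compared. Among them Sc5d, a late enzyme, had 3084 and 85 counts, 27.3-fold lower (21.97 to 34.2), and the brake Insig1 had 1148 and 151, 5.71-fold lower (4.82 to 6.81). The median log2 ratio of the 17 was -0.03, so the other 14 did not follow them past 4-fold.

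Phgdh, which opens serine synthesis and is a target of the integrated stress response, had 4 and 378 counts, 126-fold higher (48.7 to 464). It was the 1 of 7 genes of that list past 4-fold, beside 4.22% higher over all genes compared in the main scaling. With library totals 5 were past 4-fold. The list summed to 435 and 1299 scaled CPM. The list of heat shock and immediate early genes had 0 higher, or 1 with library totals, and 1 lower of 8. That share is near the 11.9% of all genes compared. The lower gene was the proto-oncogene Myc, with 161 and 18 counts. Of 12 p53 targets with 100 counts, Bax, which promotes cell death, was higher, with 45 and 223 counts. Btg2, which slows the cell cycle, was lower, with 593 and 100. That is 1 of 12 each way, beside 4.22% higher and 11.9% lower over all genes compared. With library totals 2 were higher and 0 lower, and the sum of the list had a ratio of 0.999 in the main scaling. The cell cycle kinase Cdk4 had 480 and 1709 counts, 4.74-fold higher (4.28 to 5.26), and its cyclin Ccnd3 had 13 and 91, 9.32-fold higher. In mitosis genes the ubiquitin carrier Ube2c and the kinase Plk1 were higher and the topoisomerase Top2a lower, among 19 genes, beside 4.22% higher and 11.9% lower over all genes compared. With library totals 2 were higher and 0 lower, so Top2a lay within 4-fold.

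In the splicing list 3 of 20 genes were lower, a share near the 11.9% of all genes compared, and 1 was with library totals. Arglu1 (chromosome 8, 8666297 to 8690550), which acts in splicing, had 7004 and 51 counts, 103-fold lower (78.4 to 139). Srsf10 and Luc7l3 were 5.32-fold lower each. Ribosomal protein genes took 2.99% and 5.92% of counts, and of 73 with 100 counts 4 were higher, among them Rps2, Rps19 and Rpl13, and 1, Rps25, was lower, beside 4.22% and 11.9% of all genes compared. Their copies make single values uncertain. Rn45s, the ribosomal RNA precursor, took 0.109% and 1.44% of counts. Lars2, a mitochondrial leucyl-tRNA synthetase, had 42 and 1815 counts, 57.5-fold higher (42.4 to 80.1), and its share was 0.00434% and 0.162% in P. The origin of the Lars2 reads was not tested.

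The other genes among the 12 largest differences each way had no list. Higher were Chmp2b, of the membrane-sorting ESCRT machinery, with 0 and 138 counts, Hyal2, a hyaluronidase, with 0 and 128, Scamp4, a vesicle protein, with 0 and 117, and Mpnd with 0 and 115. P with DMSO had 344, 73, 118 and 70 counts of these genes and ExE with DMSO 670, 82, 183 and 58. A count of 0 in A with DMSO helped to place these genes among the largest ratios, so their absence there partly follows from the choice. Lower were Rbm15, an adaptor of the m6A writer, with 1445 and 17 counts, the zinc transporter Slc39a1 with 2207 and 30, the superoxide dismutase Sod1 with 11542 and 200, the volume-regulated channel subunit Lrrc8a with 1218 and 16, Zfp367 with 1428 and 22, and the small GTPase Rap2b with 1386 and 23. Their levels ran from 43.4-fold lower for Sod1 to 63.9-fold lower for Rbm15.

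The higher and lower genes of A differed in how they stood in the other regions, whose pairs have their own DMSO libraries but share the arm's column code. Of the 189 higher genes 178 had 100 counts in P, and 7 (3.93%) were 4-fold or more higher there, while 19 were lower. In ExE 6 of 176 (3.41%) were higher and 3 lower. The backgrounds are 5.27% higher and 12.2% lower in P, and 2.62% higher and 11% lower in ExE. The higher shares are thus near those of all genes. The 19 of 178 lower in P are also near the share of all genes, and the 3 of 176 lower in ExE are under it. The 7 and 6 genes are 2.01% of the 348 higher genes of P and 3.13% of the 192 of ExE. Of the 532 lower genes, 254 of 459 (55.3%) were lower in P and 271 of 442 (61.3%) in ExE, against backgrounds of 12.2% and 11%. They make up 31.6% of the 804 lower genes of P and 33.5% of the 810 of ExE. In all, 201 genes were lower in A, P and ExE.

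The levels behind these counts were as follows. The 189 higher genes had a median of 17.1 scaled CPM in A with DMSO and 116 in A with EPZ005687. Their medians were 80.8 and 74.7 in P and 92.0 and 83.0 in ExE. A with DMSO was the library apart. Of the 189, 179 (94.7%) were higher in P with DMSO than in A with DMSO, beside 49.1% of the genes within 4-fold. Since A with DMSO took part in choosing the 189, this is a description. The 532 lower genes had medians of 184 and 25.9 in A, 129 and 33.1 in P and 123 and 26.6 in ExE. The EPZ005687 library was the low one in each region. In A this follows from how the 532 were chosen, so there too it is a description.

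The lower genes also divide by region. The 201 lower in all regions had medians of 502, 536 and 597 scaled CPM with DMSO in A, P and ExE, and of 42.4, 43.0 and 42.7 with EPZ005687. Arglu1, Spry2, Cbx3, Actb and Notch2 are among them. The 208 called lower in A and not in P or ExE had medians of 95.8, 30.4 and 18.3 with DMSO. With EPZ005687 their medians were 15.7, 26.9 and 16.9. The 201 were chosen as lower in every pair and the 208 by their calls, so these medians partly restate the choice. Genes under 100 counts in P or ExE count as not called there, so the 208 are not shown to be unchanged outside A. Of the 532 lower genes, 73 were under 100 counts in P and 90 in ExE. Six3 is among the 208, with 17 and 2 counts in P and 30 and 7 in ExE. Edn1, Mrgprb1, Fam84a, Edaradd and the vomeronasal receptor gene Vmn1r45 are among the 208 too, so the set is not limited to forebrain genes. Over 4069 genes with 100 counts in every pair, the log2 ratios of A correlated with those of P at a Pearson r of 0.38 (Spearman 0.28) and with those of ExE at 0.53 (0.45). These are values across genes, which are not independent, from pairs that share the column codes.

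**Figure D4:**
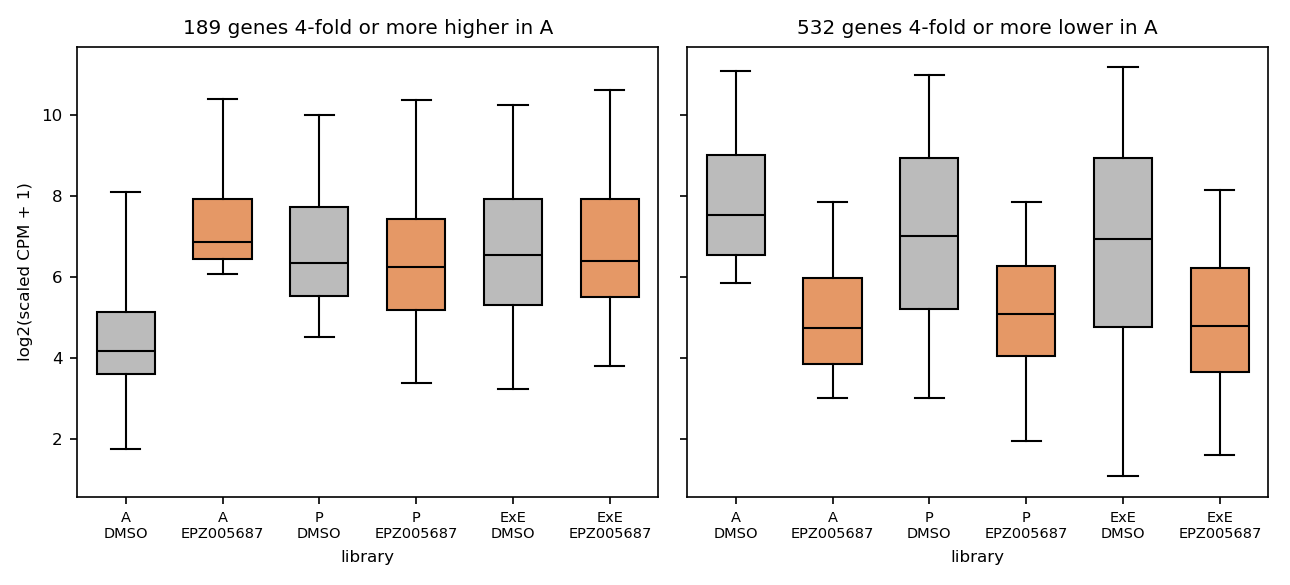
Scaled CPM, as log2(scaled CPM + 1), of the 189 higher genes (left) and the 532 lower genes (right) in the 6 libraries; boxes show the quartiles with the median as a line, whiskers the 5th and 95th percentiles, grey DMSO and orange EPZ005687. On the left A with DMSO stands below the other 5 libraries (median 17.1 against 74.7 to 116 scaled CPM), and on the right the EPZ005687 library is the low one in each region. Both A libraries took part in choosing these genes, so their levels in A partly follow from that choice.

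Gene length and promoter sequence were set beside the calls. The span from start to end of a gene had a median of 11.5 kb for higher genes, 39.8 kb for lower genes and 26.5 kb for those within 4-fold. Promoters of lower genes and of genes within 4-fold had the same median of 23 CG in 300 bases, with 59.8% and 64.7% at 20 or more. For higher genes 77.2% had a promoter in the table, too few to compare.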

How the data were processed

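PolyA RNA of explant regions was sequenced as 1 library per region and arm. The deposited table holds whole-number read counts for each gene (no normalization; the values themselves show this). Per the submitters' processing notes, CASAVA 1.8, TopHat2 2.0.9 and BWA were used with the genome build mm10; the counting tool, any use of strand and the gene models were not given in the sources used here, so reads of a gene and its antisense partner cannot be told apart. Of 23154 entries, 27 dates in place of symbols were left out. Of the 23127 genes left, 23009 (99.5%) matched RefSeq GRCm38.p6, which gave coordinates and promoters.

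TMM factors (edgeR 4.0.16 in R 4.3.3) came from genes with 10 or more counts in 2 or more of the 6 libraries. Ratios carry 95% conditional exact binomial (Clopper-Pearson) intervals (scipy 1.17.1), which cover counting error only, since reads without molecular identifiers are not independent molecules. The ratio was tested on simulated data with known changes. No test between conditions was made. Genes with a ratio of 4 or more, or 0.25 or less, among those with 100 or more counts over the 2 A libraries were counted as higher or lower.

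Members, gene lists and comparisons were chosen with earlier results of these data known. Named genes were the 12 largest differences each way by the interval bound nearest 1, up to 3 genes past 4-fold each way per list, and the first 6 genes of the marker, PRC2, demethylase and sex-linked lists. Other genes named with their counts were chosen after their values were seen, and some genes that the rule names are not reported here. Promoter windows run from 250 bases before to 50 after the start; the promoter check was void for higher genes and for the neural list, where under 80% had an entry. The alternatives were 4 other scalings (1 with DESeq2 1.42.0 size factors), other count minimums, a prior count of 2, other folds, the interval rule, the dates kept, and lists without their most abundant gene.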

Additional observations from a re-analysis of the deposited data

Results flagged for a closer look

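Car14, a membrane-bound carbonic anhydrase, was 4-fold or more higher in A and 4-fold or more lower in P and in ExE, which singled it out. It had 26 counts with DMSO and 99 with EPZ005687 in A, a log2 ratio of 2.34 (a ratio of 5.07, 95% interval 3.26 to 8.14). In P it had 196 and 5 counts, a log2 ratio of -4.79, and in ExE 467 and 57, a log2 ratio of -2.18. The difference between the regions was not tested, since each pair has 1 library a side.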

How the results depend on the processing

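The main counts were 189 higher and 532 lower. Higher and lower counts were 316 and 366 with library totals, 285 and 401 with totals that leave out the 50 most abundant genes, and 267 and 415 with TMM of the 2 A libraries alone. They were 454 and 795 with a minimum of 50 counts, 55 and 287 with 300, and 2446 and 1377 with no minimum and a prior count of 2. They were 640 and 1331 at 2-fold, 66 and 203 at 8-fold, and 105 and 328 where the whole interval lay past 4-fold. With median-of-ratios size factors, a prior count of 2 or the dates kept, the counts stayed within 1.5 times. Library totals kept all 189 higher genes and 366 of the lower ones. Of 10 list sums past 4-fold, 0 changed sign under a scaling, and 1 did without its most abundant gene: the actin list turned to a log2 ratio of 0.96 without Actb, which alone carried its difference. Other sums kept their sign but fell inside 4-fold without their most abundant gene. They became 1.48-fold lower for neural crest and placode, 1.79-fold for H3K27 demethylases and acetyltransferases, 2.02-fold for FGF and 3.80-fold for epiblast. The trophoblast sum became 3.18-fold higher. None of the 88 named genes, all past 4-fold, changed sign. A scaling moves every log2 ratio by the same amount, and library totals moved the median from -0.34 to 0.07. A gene or list sum past 4-fold could not change sign by such a move. Library totals could also lose none of the higher genes, so these outcomes were fixed in advance. No paired analysis was possible because each group has 1 library, and no library could be left out for the same reason. Counting depth limits the comparison to genes with 100 counts, and a count of 0 was set to the floor of 1.77 scaled CPM with DMSO and 2.35 with EPZ005687.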

Other observations

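The most abundant gene entry in A with EPZ005687 was Mrgpra6, a sensory neuron receptor gene, with 2.40% of counts, beside 0.528% in A with DMSO. Its share was 0.146% and 0.314% in P and 0.0403% and 1.12% in ExE, with DMSO and EPZ005687. Among receptor genes of the nose, the pseudogene Olfr856-ps1 took 0.131% of counts in A with DMSO and 0.258% with EPZ005687. Without it the olfactory and vomeronasal list had a log2 ratio of -0.60. Of the 1455 genes of that list 4 reached 100 counts. Of these 0 were higher and 1 lower, beside 4.22% and 11.9% of all genes compared. The lower gene was Vmn1r45, with 105 and 2 counts, 39.4-fold lower (10.65 to 330). The minimum of 100 counts thus does not keep out all such genes. Where these reads come from was not tested.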
